A study of Mus musculus with 5 samples.

Results

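The AP-1 and BATF family genes *Fos*, *Fosb*, *Fosl2*, *Jun*, *Junb*, *Jund*, *Batf* and *Batf3* are described here by the acetylated histone peaks called at them in memory (TM) CD8+ T cells. They are 8 of the 21938 protein-coding genes of the GENCODE annotation of GRCm38. A peak was assigned to a gene when it overlapped the gene body or the 10 kb on either side by at least 1 bp. This gave 38 peaks, which merged into 14 of the 18410 regions that the 5 peak lists hold together. The ChIPseq compared TM cells of WT mice (2 libraries) with TM cells of TPdh-/- mice (3 libraries, labelled PDH_Mutant), to learn how histone acetylation differs when acetyl-CoA cannot be made from pyruvate by the pyruvate dehydrogenase complex. TPdh-/- mice carry a floxed *Pdha1* allele that is removed by a Cre recombinase under the *Cd4* promoter, which is active in developing T cells, so CD8+ as well as CD4+ T cells of the line are affected. Cells of both groups were activated with antigen and kept in IL-15 afterwards, which drives them towards a memory type, and chromatin was precipitated with the same antibody, described in the methods as raised against acetylated lysine of histones and in the labels as acetyl K18. The study describes its measurements as taken from discrete samples and states more samples per condition than the lists used here. The labels tie no library to a mouse and give no sex of the donor mice, so the p-values measure the spread between these libraries, part of which may be technical.

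AP-1 is a dimer of basic leucine zipper proteins, in which a Jun protein pairs with another Jun protein, with a Fos protein or with a related factor. *Fos*, *Fosb*, *Jun* and *Junb* are immediate early genes, transcribed within minutes of T cell receptor signalling without new protein synthesis, while JUND is made more constantly. BATF and BATF3 lack a transactivation domain, pair with Jun proteins and bind together with IRF4 or IRF8 at composite sites, and BATF is known for its part in CD8+ T cell differentiation. Histone acetylation marks active or poised promoters and enhancers.

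*Jun* and *Batf* were the genes of the group with a peak in all 5 libraries, and the sequences of these regions are shown here first. The sequence before the start site of *Jun* (chr4:95052223-95052472, minus strand of GRCm38.p6) and of *Batf* (chr12:85686470-85686668, plus strand), and the centre of the merged region within an intron of *Batf* (chr12:85705243-85705542, plus strand), were read from the RefSeq promoter table and the genome. Upstream sequence of *Fos* (chr12:85473640-85473889, plus strand), with a peak in 4 libraries, and of *Junb* (chr8:84978749-84978998, minus strand), with a peak in 2, is given for contrast. Capitals mark TGACATCA, the variant AP-1 site known from the *Jun* promoter, which was found in the first sequence alone.
Jun promoter: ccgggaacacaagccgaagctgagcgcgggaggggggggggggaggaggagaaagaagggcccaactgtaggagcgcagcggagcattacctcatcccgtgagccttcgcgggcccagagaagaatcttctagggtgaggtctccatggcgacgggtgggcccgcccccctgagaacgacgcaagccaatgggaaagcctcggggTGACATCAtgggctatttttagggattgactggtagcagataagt
Batf promoter: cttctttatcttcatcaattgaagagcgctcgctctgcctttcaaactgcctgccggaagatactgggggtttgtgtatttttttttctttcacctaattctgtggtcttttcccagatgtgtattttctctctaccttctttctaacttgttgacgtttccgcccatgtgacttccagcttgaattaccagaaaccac
Batf intron region centre: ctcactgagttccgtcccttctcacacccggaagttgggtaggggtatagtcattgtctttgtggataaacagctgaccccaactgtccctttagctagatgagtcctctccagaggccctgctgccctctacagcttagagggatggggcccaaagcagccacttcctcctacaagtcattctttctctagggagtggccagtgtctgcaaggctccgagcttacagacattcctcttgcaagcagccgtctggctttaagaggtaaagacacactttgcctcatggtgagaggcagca
Fos promoter: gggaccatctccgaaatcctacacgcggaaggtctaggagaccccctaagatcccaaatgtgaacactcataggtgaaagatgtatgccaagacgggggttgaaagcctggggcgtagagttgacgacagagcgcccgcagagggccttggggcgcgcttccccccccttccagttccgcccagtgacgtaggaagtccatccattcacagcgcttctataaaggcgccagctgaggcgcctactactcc
Junb promoter: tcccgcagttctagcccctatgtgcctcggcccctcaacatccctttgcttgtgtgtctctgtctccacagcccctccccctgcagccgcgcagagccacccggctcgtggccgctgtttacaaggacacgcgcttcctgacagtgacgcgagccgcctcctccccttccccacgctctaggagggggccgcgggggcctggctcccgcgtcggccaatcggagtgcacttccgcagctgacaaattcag
The *Jun* site lies 45 bp upstream of the start site, and peaks of all 5 libraries cover it. The GC content of the *Batf* upstream sequence was 42.2%, against 61.2% at *Jun*, 58.4% at *Fos* and 66.4% at *Junb*, and it was the lowest of the 6 genes whose upstream sequence was examined.

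Searched on both strands over the 300 bp around the RefSeq start, TGACATCA was present in 3.62% of 32851 mouse promoters and in 1 of these 6. The RefSeq starts of *Fosl2* and *Batf3* lie 671 and 567 bp inside the GENCODE genes, so these were left out. The classical AP-1 site TGACTCA, the cAMP response element (CRE) TGACGTCA and the CArG box, at which serum response factor binds, were in 5.20%, 1.79% and 1.63% of all promoters and in 0 of these 6. None of these motifs contains another. Over the whole merged regions, which are longer, other matches appeared, and a match is a description of the letters, not evidence of binding. The *Fos* region holds a CArG box 309 bp upstream of the start, where the serum response element of this gene is known to lie, and peaks of 2 libraries cover it. The *Fosl2* region holds an AP-1 site 53 bp past the start, covered in 4 libraries. A CRE lies 661 bp upstream of the start of *Batf*, covered in 4 libraries, and another 214 bp upstream of the GENCODE start of *Jund*, covered in 1. Another CArG box lies 2085 bp past the start of *Junb*, covered in 2 libraries, and one lies in the region past the end of *Fos*, covered in 1. The sites near a start are shown with 30 bases of sequence on the strand of the gene and the site in capitals.
Fos CArG box, chr12:85473571-85473600: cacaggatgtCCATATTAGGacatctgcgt
Fosl2 AP-1 site, chr5:32135843-32135872: tgccattgtagTGACTCAtctcgggcagag
Batf CRE, chr12:85685997-85686026: ttgttgggttaTGACGTCActgacttctga
Jund CRE, chr8:70698724-70698753: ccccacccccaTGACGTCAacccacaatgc
In windows as wide as each of these regions, placed on all 18410 merged regions, the same motif was found in 5.24% for *Fos*, 24.0% for *Fosl2*, 3.46% for *Batf* and 4.51% for *Jund*, and in 22.2% for the CArG box at *Junb* and 4.01% for that past *Fos*. Longer windows hold a match more often, and the AP-1 site of *Fosl2* is the most common of these.

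The lists differ in length, and this touches each result below. In WT the number of peaks was 15962 (replicate 1) and 8859 (replicate 2), while in TPdh-/- it was 4920, 5419 and 9418 (replicates 1 to 3). The labels give a minimum number of reads aimed for in sequencing, but the lists carry no counts from which the depth of each library could be read, so values are given without intervals for counting error. A peak that is not listed may lie below the threshold of the peak caller. Less acetylation per cell and fewer cells with the mark cannot be told apart in these samples. As a check of the label, 10 T cell marker genes were examined for a peak within 1 kb of a start site. WT replicates 1 and 2 had one at 10 and 6 of them. TPdh-/- replicates 1, 2 and 3 had one at 3, 5 and 6. *Cd8b1* and *Lck* had one in all 5 libraries, *Cd3e* in all but TPdh-/- replicate 1, and *Cd8a* in WT replicate 1 alone. Of all protein-coding genes, 39.7% and 22.9% had such a peak in WT and 14.3%, 15.5% and 26.1% in TPdh-/-. The B cell and myeloid lists of 6 genes each had 0 in every library. Of *Cd4*, *Zbtb7b* and *Foxp3*, *Foxp3* had a peak, in WT replicate 1 alone.

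All 8 genes had a peak in WT replicate 1, where 54% of all protein-coding genes had one. WT replicate 2 had peaks at 5 of them (*Fos*, *Fosl2*, *Jun*, *Jund* and *Batf*) against 36.4% of all genes. TPdh-/- replicate 1 had peaks at 2 (*Jun* and *Batf*; 23.2% of all genes), TPdh-/- replicate 2 at 4 (*Fos*, *Fosl2*, *Jun* and *Batf*; 24.7%) and TPdh-/- replicate 3 at 7, all but *Batf3* (39.2%). The sets were nested: each gene with a peak in a shorter list also had one in every longer list. The order of the counts was thus the order of list length, and TPdh-/- replicate 3 had more of these genes than WT replicate 2. The part of list length in the difference between groups was not tested. When each list was cut to the 4920 peaks that ranked highest in it, the counts were 3 and 2 in WT and 2, 4 and 5 in TPdh-/-. With a −log10 q of at least 5, they were 3 and 2 in WT and 0, 0 and 2 in TPdh-/-. The share of all protein-coding genes per library is not given for these settings. These counts are therefore not read as particular to the group.

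The same number of genes had a peak within 1 kb of a start site, 8 and 5 in WT and 2, 4 and 7 in TPdh-/-. The share of all protein-coding genes was lower in this narrower window, at 39.7% and 22.9% in WT and 14.3%, 15.5% and 26.1% in TPdh-/-. In each library, a peak within 1 kb of an annotated start site was therefore found at each gene of the group that had any peak. *Fosb* has 4 annotated start sites, and its peak in WT replicate 1 lay 1385 bp or more past the first.

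**Figure D1:**
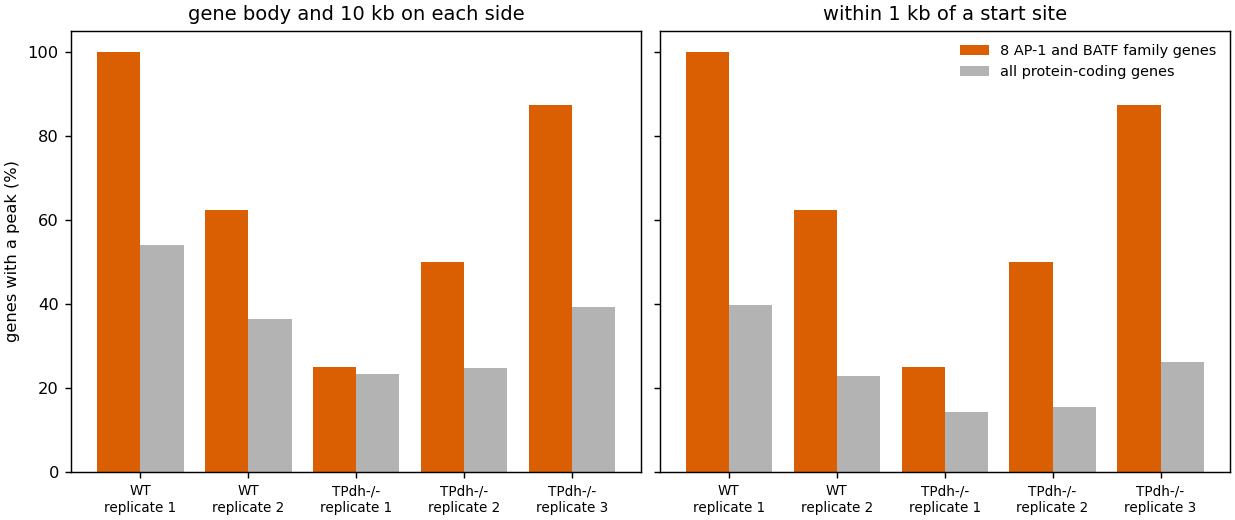
Share of genes with a peak (%, bars from 0) in each library for the 8 AP-1 and BATF family genes and for all 21938 protein-coding genes, over the gene body and 10 kb on each side (left) and within 1 kb of a start site (right). TPdh-/- replicate 3 stands above WT replicate 2 in both panels and for both sets of genes.

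Of the 14 merged regions, 8 lay at the start of the gene itself, 1 at the start of other genes and 5 at no start site of a coding gene. Peaks of all 5 libraries were found in 3 regions, of 4 libraries in 2, of 3 in 2 and of 2 in 2. The other 5 regions were called in 1 library, in each case WT replicate 1, which has the longest list and held 30.9% of all 18410 merged regions alone. Over all merged regions, 16.8% were called in all 5 libraries, 11.0% in 4, 12.97% in 3, 15.8% in 2 and 43.4% in 1. No region of the group was called in both WT and no TPdh-/- library (0 of 14), as 5.92% of all regions were, and none in TPdh-/- without WT (0 of 14), as 8.46% were. Widths of the 38 peaks ranged from 563 to 4708 bp, and fold enrichment over the background estimated by the peak caller, a ratio on a linear scale, ranged from 1.51 to 3.59.

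**Figure D2:**
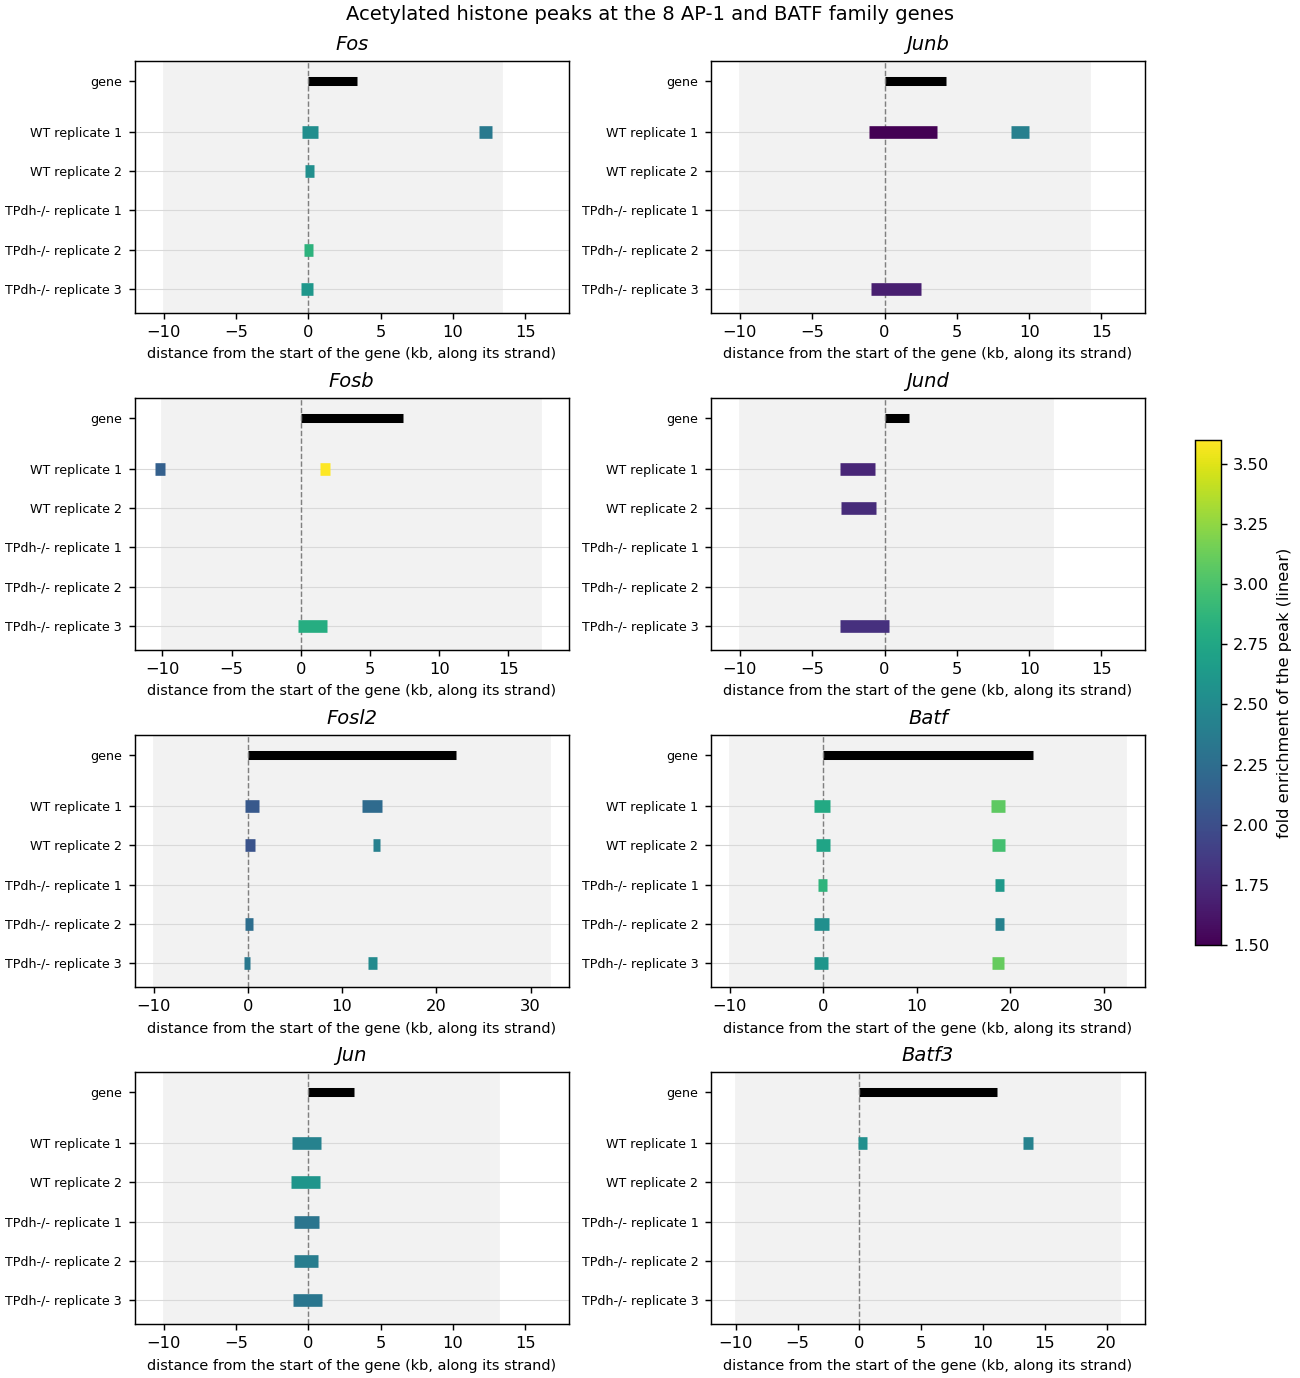
Peaks at each of the 8 genes by library, drawn to scale against the distance from the GENCODE start of the gene (kb, along its strand), with the gene body in black, the window of the gene body and 10 kb shaded and the colour giving the linear fold enrichment. *Jun* and *Batf* have peaks at the start in every library, and the regions called in 1 library are all in the row of WT replicate 1.

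*Fos* encodes the founding Fos protein and lies at chr12:85473890-85477273 on the plus strand. A peak covered its start in 4 libraries, and none was called in TPdh-/- replicate 1. The peak was 1111 and 648 bp wide in WT replicates 1 and 2 and 590 and 856 bp in TPdh-/- replicates 2 and 3. Its fold enrichment was 2.53 and 2.54 in the WT libraries and 2.85 and 2.61 in the TPdh-/- libraries. Both TPdh-/- values lay above both WT values, among the libraries in which the peak was called. To compare strength across lists, each peak was given its percentile by −log10 q, the share of peaks of its own list that rank no higher, with 0 for a gene with no peak. For *Fos* this was 52.7 and 27.8 in WT and 0, 67.4 and 50.7 in TPdh-/-. The means were 40.2 ± 17.6 (SD, n = 2) and 39.3 ± 35.1 (SD, n = 3), and the groups overlapped (exact permutation test, two-sided, p = 1). A further peak of WT replicate 1 (916 bp, fold 2.35, rank 13534 of 15962) lay past the gene, 8399 bp from it, at chr12:85485672-85486587.

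*Fosb*, which encodes another activating Fos protein, lies at chr7:19302696-19310051 on the minus strand. WT replicate 1 had a peak of 721 bp in its exons, from 1385 to 2105 bp past the start, which did not reach the start. With a fold of 3.59 and rank 1113, it had the highest fold and the highest percentile, 93.0, of the 38 peaks. TPdh-/- replicate 3 had a wider peak of 2089 bp that covered the start and reached 1884 bp into the gene, with a fold of 2.80 and rank 3517. The other libraries, 1 WT and 2 TPdh-/-, had none. Percentiles were 93.0 and 0 in WT and 0, 0 and 62.7 in TPdh-/-, so 1 library of each group was high, and the difference of 25.6 between the means was within the spread (exact permutation test, two-sided, p = 0.8). At the edge of the window, WT replicate 1 had a weaker peak (fold 2.13, rank 13563) whose nearer end lay 9810 bp upstream.

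*Fosl2* encodes FRA2, a Fos protein without the strong transactivation domain of FOS, and lies at chr5:32135801-32157842 on the plus strand. A peak at the start was called in 4 libraries, with widths of 1556 and 1062 bp in WT replicates 1 and 2 and 871 and 563 bp in TPdh-/- replicates 2 and 3. Both WT peaks were wider than both TPdh-/- peaks, while fold enrichment had the opposite order, at 2.08 and 2.04 in WT and 2.25 and 2.34 in TPdh-/-. Within its own list this fold had a percentile of 21.1 and 9.87 in WT and of 17.7 and 37.0 in TPdh-/-, so on that scale the groups overlapped. A second region, 12147 to 14207 bp into the gene and all within introns, was called in both WT libraries and in TPdh-/- replicate 3, with folds of 2.23, 2.41 and 2.50. The summed width of all peaks at *Fosl2* was higher in both WT libraries than in any TPdh-/- library, at 2733 ± 1250 bp (SD, n = 2) against 786 ± 748 bp (SD, n = 3). The two-sided exact permutation p was 0.2, the lowest that 2 against 3 libraries allow, and 0.772 after Benjamini-Hochberg adjustment over 12312 genes. Percentiles overlapped, at 48.1 and 19.1 in WT and 0, 29.97 and 54.7 in TPdh-/- (exact permutation test, two-sided, p = 1).

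*Jun* lies at chr4:95049034-95052222 on the minus strand and encodes c-Jun, which can pair with any Fos or BATF protein. Its peak reached from about 1 kb upstream of the start into the single exon, and nothing else was called in its window. The WT peaks measured 2022 and 2017 bp, against 1678, 1669 and 2033 bp for TPdh-/-. The widths were among the largest of each list, between the 90.1 and 94.0 percentile, whereas fold enrichment was 2.42 and 2.59 in WT and 2.32, 2.39 and 2.33 in TPdh-/-. Within its own list, this fold had a percentile of 51.3 and 53.9 for WT but of 18.4, 29.2 and 35.2 for TPdh-/-. By −log10 q the peak had rank 1693 and 654 for WT, and rank 2230, 1281 and 1397 for TPdh-/-. The percentiles were 89.4 and 92.6 in WT and 54.7, 76.4 and 85.2 in TPdh-/-. Both WT libraries lay above all 3 TPdh-/- libraries, at 91.0 ± 2.28 (SD, n = 2) against 72.1 ± 15.7 (SD, n = 3). The difference of 18.9 had p = 0.2 (exact permutation test, two-sided) and 0.805 after adjustment over 12312 genes. It was positive under each of the 14 alternatives, from 9.40 to 55.0. The window settings among them could not change it, since the peak at the start was the only one called. The replicate block gave the same value as leaving out TPdh-/- replicate 3. In the percentile each rank is divided by list length, and the separation of the groups did not hold with lists of equal length. With every list cut to its 4920 strongest peaks, the percentiles of *Jun* were 65.6 and 86.7 in WT and 54.7, 74.0 and 71.6 in TPdh-/-, so that WT replicate 1 lay below TPdh-/- replicates 2 and 3.

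*Junb* encodes a Jun protein that restrains c-Jun in some settings and lies at chr8:84974484-84978718 on the minus strand. Its peaks were broad and weak. WT replicate 1 had one of 4708 bp with a fold of 1.51 and rank 14845, and TPdh-/- replicate 3 one of 3471 bp with a fold of 1.68 and rank 8434. In width they stood at the 99.9 and 99.7 percentile of their lists, and in fold at the 0.276 and 0.616 percentile. Neither WT replicate 2 nor TPdh-/- replicates 1 and 2 had a peak at the gene. A peak of WT replicate 1 at the other end of the window (fold 2.41, rank 9636) lay at the start sites of *Prdx2*, *Rnaseh2a* and *Gm49661*, and was counted because the window of *Junb* reaches them. With it, the percentile of the strongest peak was 39.6 and 0 in WT and 0, 0 and 10.46 in TPdh-/- (exact permutation test, two-sided, p = 0.8). The peak at *Junb* itself had a percentile of 7.004 in WT replicate 1, below that of TPdh-/- replicate 3.

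*Jund*, at chr8:70698949-70700616 on the plus strand, had peaks of the same broad and weak kind. They were 2476 and 2431 bp wide in WT replicates 1 and 2 and 3434 bp in TPdh-/- replicate 3, with folds of 1.73, 1.76 and 1.79. In width they stood between the 95.6 and 99.7 percentile of their lists, and in fold between the 1.40 and 2.91 percentile. The 2 annotations place the start of this gene 1210 bp apart. The RefSeq start lies upstream and was covered by all 3 peaks, while the GENCODE start was covered in TPdh-/- replicate 3 alone. The percentiles by −log10 q were 45.3 and 21.3 in WT and 0, 0 and 17.1 in TPdh-/-. Both WT libraries lay above the TPdh-/- libraries, at 33.3 ± 17.03 (SD, n = 2) against 5.69 ± 9.86 (SD, n = 3), with p = 0.2 (exact permutation test, two-sided) and 0.805 after adjustment over 12312 genes. With lists of equal length, no library had a peak at *Jund*, and the difference was 0.

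**Figure D3:**
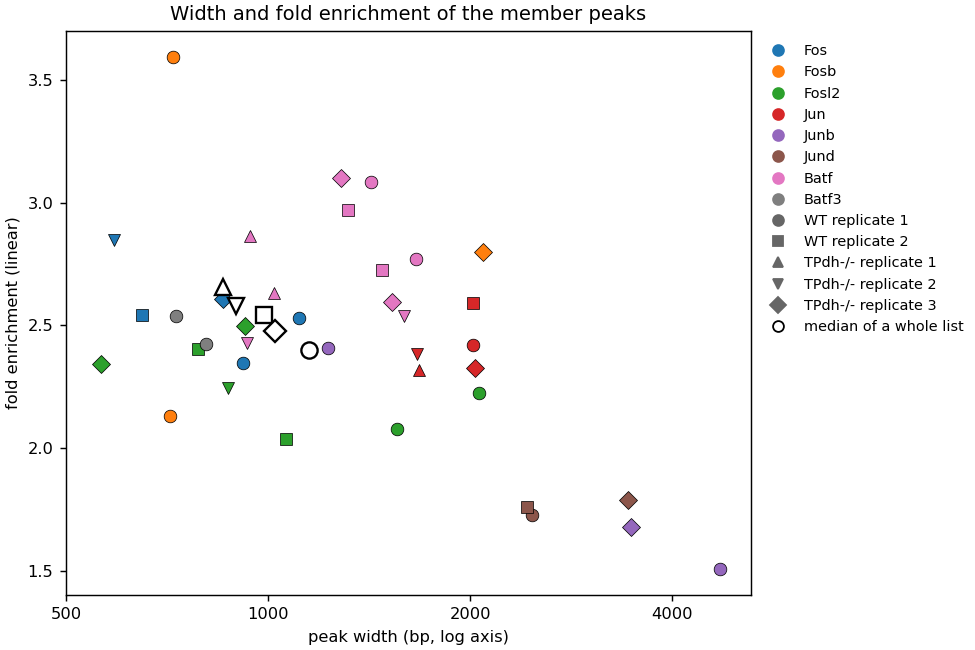
Width (bp, log axis) against linear fold enrichment of the 38 peaks, coloured by gene and shaped by library, with open symbols for the median of all peaks of each list. The peaks of *Junb* and *Jund* at their own start lie at the lower right, between 2431 and 4708 bp and under a fold of 1.8, and the peaks of *Jun* are wide, with a fold near the list median in WT and below it in TPdh-/-.

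*Batf* lies at chr12:85686669-85709087 on the plus strand, on the same chromosome as *Fos*, and had peaks in 2 regions in every library. At the start the WT peaks measured 1659 and 1476 bp, against 939, 1592 and 1530 bp for TPdh-/-. Fold enrichment there was 2.77 and 2.73 in WT and 2.86, 2.54 and 2.60 in TPdh-/-, and the highest and the lowest of these values both belonged to TPdh-/-. The intron region lay 18011 to 19435 bp past the start and no start site of a coding gene lies there. The WT peaks there measured 1425 and 1315 bp, against 1021, 929 and 1282 bp for TPdh-/-, so both WT peaks were wider than all 3 of TPdh-/-. In fold, the values of 3.08 and 2.97 in WT were set against 2.63, 2.43 and 3.10 in TPdh-/-, of which the last was above both WT libraries. The percentile of the strongest peak, at the intron in WT replicate 2 and TPdh-/- replicate 3 and at the start in the other 3 libraries, was 87.3 and 76.9 in WT and 67.5, 57.1 and 88.3 in TPdh-/-. The means of 82.1 ± 7.37 (SD, n = 2) and 71.0 ± 15.9 (SD, n = 3) were within the spread (exact permutation test, two-sided, p = 0.6).

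*Batf3*, known for its part in dendritic cells and in T cell memory, lies at chr1:191097847-191108945 on the plus strand. It had peaks in WT replicate 1 alone, 1 over the start (729 bp, fold 2.54, rank 7507) and 1 past the end of the gene (809 bp, fold 2.42, rank 7187), 2170 bp from it. Both stood near the middle of that list, at the 53.0 and 55.0 percentile. The other 4 libraries had none in the window, and the groups overlapped at 0 (p = 0.8, two-sided exact permutation test).

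By the mean percentile of the strongest peak over the 5 libraries, the order was *Jun* (79.7), *Batf* (75.4), *Fos* (39.7), *Fosb* (31.1), *Fosl2* (30.4), *Jund* (16.7), *Batf3* (11.0) and *Junb* (10.02). Neighbours in this order overlapped in their ranges over libraries. The lowest values of *Jun* and *Batf* were 54.7 and 57.1. Compared within each library, *Jund*, *Junb*, *Fosl2* and *Batf3* stayed below both genes, with highest values of 45.3, 39.6, 54.7 and 55.0. *Fos* reached 67.4 in TPdh-/- replicate 2, above *Batf* there (57.1). *Fosb* reached 93.0 in WT replicate 1, above both *Jun* (89.4) and *Batf* (87.3). The pattern nearest to that of *Jun* among all other protein-coding genes was that of *Tal1*, whose percentile differed by 2.48 on average over the 5 libraries, followed by *Adar* (2.55) and *Csnk2a1* (2.59). These values come from the strongest peak in the whole window of each gene. For *Junb* in WT replicate 1 that peak (39.6) lies at the start sites of neighbouring genes, while the peak at *Junb* itself had a percentile of 7.004. For *Batf3* that peak (55.0) lies past the end of the gene. Whether the peaks of *Tal1*, *Adar* and *Csnk2a1* lie at the gene itself or at a neighbour was not examined.

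**Figure D4:**
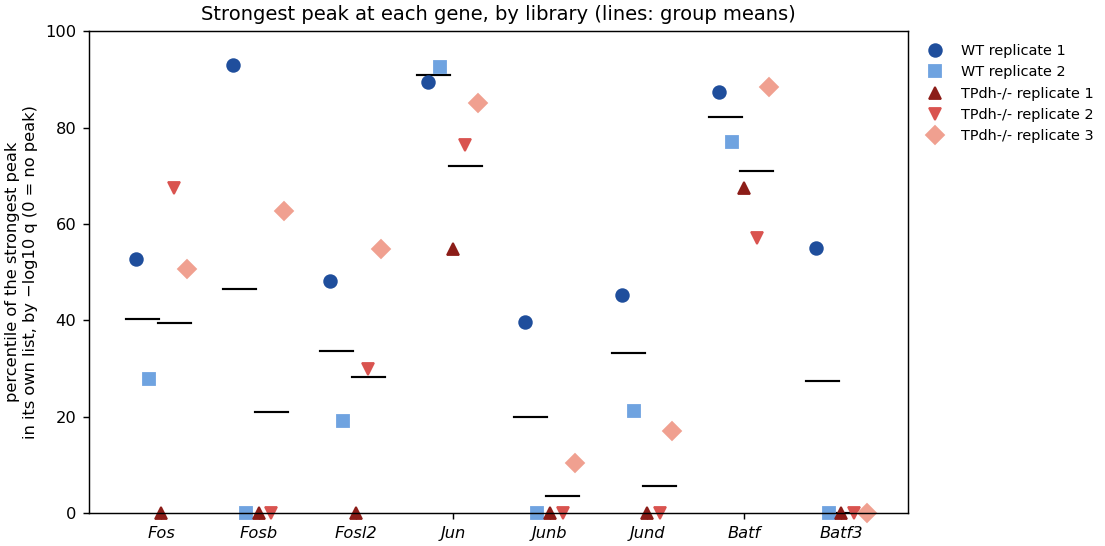
Percentile of the strongest peak at each gene in its own list by −log10 q (0 where no peak was called), with a symbol for each of the 5 libraries and lines for the means of 2 WT and 3 TPdh-/- libraries. Both WT symbols lie above all TPdh-/- symbols at *Jun* and *Jund*, which did not hold with lists of equal length, and at the other 6 genes the groups overlap.

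Over the 8 genes, the percentile was higher in both WT libraries than in all TPdh-/- libraries at 2 (*Jun* and *Jund*) and lower at 0. Among all 12312 protein-coding genes with a peak in any library, 24.5% were higher in this way and 0.349% lower. The summed width was higher at 1 (*Fosl2*) and lower at 0 of the 8, against 25.8% and 0.0569% of all genes. The shares of the 8 genes were thus near or below the background. None of these separations held with lists of equal length, an alternative added for this count after the values were seen. Both counts of higher genes were then 0 of the 5 genes of the group with a peak, and both counts of lower genes 0, whereas of 8500 protein-coding genes 9.91% were higher and 6.79% lower in percentile, and 19.4% higher and 2.32% lower in summed width. With the full lists, the WT mean was higher at all 8 genes by either measure, as it was at 89.0% of the 12312 genes in percentile and 94.2% in width. The median difference was 17.6 in percentile and 812 bp in width over the 8 genes, and 18.4 and 598 bp over all. With lists of equal length the WT mean percentile was higher at 2 genes, *Fosb* and *Jun*, lower at 3, *Fos*, *Fosl2* and *Batf*, and without a peak in any library at the other 3, and it was higher at 51.6% of the 8500 genes. At *Junb* the difference in percentile was 16.3 with the peak at the neighbouring genes and 0.0158 without it. No gene of the 12312 had an unadjusted p under 0.05 in the exact permutation test, since 2 against 3 libraries cannot give a two-sided p below 0.2. The smallest adjusted p was 0.805 for the percentile and 0.772 for the width.

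Summed over the 8 genes, peaks covered 22.1 and 9.74 kb in WT and 3.64, 5.65 and 16.2 kb in TPdh-/-, a mean of 15.9 ± 8.77 kb (SD, n = 2) and 8.49 ± 6.74 kb (SD, n = 3). There were 14 and 7 peaks in WT and 3, 5 and 9 in TPdh-/-, or 10.5 ± 4.95 (SD, n = 2) and 5.67 ± 3.06 (SD, n = 3). The mean percentile of the 8 genes was 63.8 and 29.7 in WT and 15.3, 28.8 and 46.1 in TPdh-/-. In all 3 sums TPdh-/- replicate 3 lay between the WT libraries, and the differences of 7.44 kb, 4.83 peaks and 16.7 percentile points stood beside a pooled SD of 7.48 kb, 3.79 peaks and 18.8 points. The differences changed in size when single libraries were left out, and only that in percentile points changed sign. Without WT replicate 1 they were 1.25 kb, 1.33 peaks and -0.376 points, without WT replicate 2 they were 13.6 kb, 8.33 peaks and 33.7 points, without TPdh-/- replicate 1 the points were 9.27, and without TPdh-/- replicate 3 the covered length was 11.3 kb. With lists of equal length the differences changed sign, to -0.563 kb, -1.17 peaks and -0.498 points.

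Fold enrichment was also compared in the regions with a peak in all 5 libraries, where no value is missing. This comparison was added after the values were seen and holds for regions strong enough to be called in every list. The 3 such regions of this group, the start of *Jun* and the start and intron of *Batf*, were among 3099 in the genome. Fold enrichment at *Jun* was higher in both WT libraries than in all TPdh-/- libraries, at 2.51 ± 0.123 (SD, n = 2) against 2.34 ± 0.0368 (SD, n = 3). The difference of 0.163 had p = 0.2 (exact permutation test, two-sided) and 0.824 after adjustment over the 3099 regions, of which 12.6% were higher in WT in the same way. At the *Batf* start the difference in fold was 0.0821 and at the *Batf* intron 0.307, and the groups overlapped at both (exact permutation test, two-sided, p = 0.6 each). The median difference over all 3099 regions was 0.00869, and 90% of them lay between -0.309 and 0.470, a range that holds all 3 values. Width was higher in both WT libraries at the *Batf* intron alone, at 1370 ± 77.8 bp (SD, n = 2) against 1077 ± 183 bp (SD, n = 3), as it was in 33.5% of all regions. The percentile by −log10 q in the full lists was higher at the *Jun* start and the *Batf* start, 2 of 3, against 29.5% of all regions. With lists of equal length it was higher at 0 of 3, against 7.91%. The part of list length in this separation was not tested. Widths too depend on the threshold of each list.

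**Figure D5:**
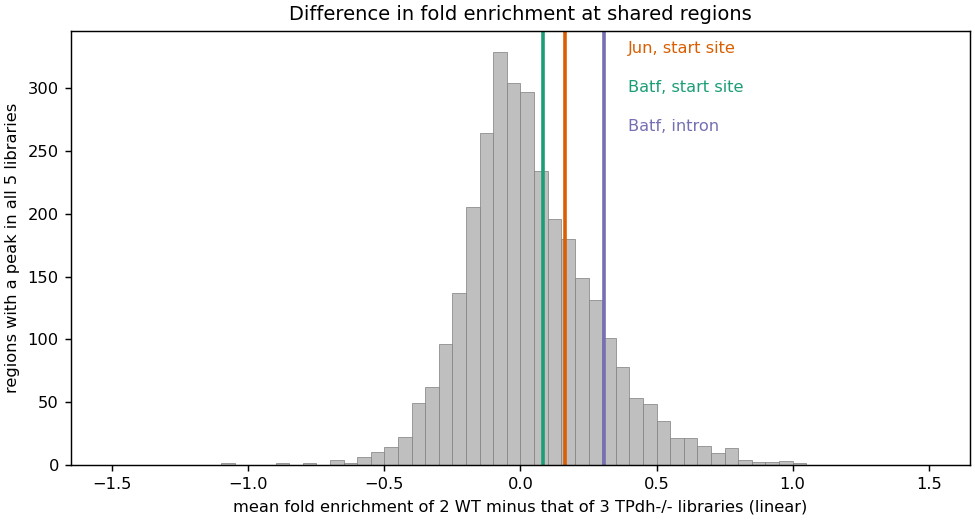
Histogram of the difference in linear fold enrichment, mean of 2 WT minus mean of 3 TPdh-/- libraries, over the 3099 regions with a peak in all 5 libraries (vertical axis, number of regions), with lines at the start of *Jun* (0.163), the start of *Batf* (0.0821) and the intron of *Batf* (0.307). The 3 lines lie right of the median of 0.00869 and inside the bulk of the distribution.

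Related genes were counted in the same window. Of 20 other basic leucine zipper genes, 19 and 16 had a peak in WT and 11, 13 and 16 in TPdh-/-, with 10 in all 5 libraries and 1, *Maf*, in none. Of all protein-coding genes, 54% and 36.4% had one in WT and 23.2%, 24.7% and 39.2% in TPdh-/-. No share of all genes is given here for a peak in all 5 libraries or in 1 genotype alone, so those counts are descriptive. The highest mean percentiles belonged to *Atf4* (94.0), a factor of the amino acid stress response, and *Crem* (91.9), a cAMP responsive factor, both with a peak in all 5 libraries and above *Jun*. *Nfe2l1* was the gene of this list with a peak in both WT (percentiles 47.5 and 44.8) and no TPdh-/- library. The 2 remaining Fos and Batf relatives, picked out after their values were seen, stood at opposite ends. *Batf2* had a mean percentile of 90.1 with a peak in all 5 libraries, and *Fosl1* a peak in WT replicate 1 alone, at the 18.5 percentile. Whether such peaks lie at the starts of neighbouring genes was not examined.

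Of 17 genes for BATF partners and for kinases and factors upstream of AP-1, 16 and 11 had a peak in WT and 8, 10 and 12 in TPdh-/-, with 7 in all libraries and 1, *Elk1*, in none. The shares of all protein-coding genes were again 54% and 36.4% in WT and 23.2%, 24.7% and 39.2% in TPdh-/-. *Elk3* (91.5), a partner of serum response factor, and *Prkcq* (87.8), the protein kinase C of T cell receptor signalling, had the highest mean percentile. Among the basic leucine zipper genes, 3 of 20 (*Crem*, *Bach2* and *Nfe2l1*) had a higher percentile in both WT than in all TPdh-/- libraries, and among the partners and upstream genes 5 of 17 (*Mapk14*, *Map2k4*, *Map2k7*, *Elk3* and *Elk4*), each with p = 0.2 in the exact permutation test (two-sided) and 0 in the other direction in both lists. These genes are named because of their values, and stand beside the 24.5% of all genes tested.

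The window of 10 kb decided few of these peaks. The farthest peak inside it was that of *Fosb* in WT replicate 1, at 9810 bp, and the nearest outside it lay 10965 bp from *Junb*, in 1 library with a fold of 2.05. Around *Fos* the nearest outside was 17637 bp away and was called in 4 libraries, and around *Jun* it was 53327 bp away.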

How the data were processed

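Peak lists of 5 ChIPseq libraries were used, 1 file per library. The authors aligned reads to GRCm38/mm10 with BWA-mem (version 0.7.17 in the submitters' processing notes), kept uniquely mapping reads, removed blacklisted regions (SAMtools 1.15.1) and called broad peaks per library with MACS2 2.2.6. No input control is named in the sources used here. The deposited lists give for each peak a fold enrichment (a linear ratio over the estimated background) and the authors' −log10 p and −log10 q. The −log10 p was not used. DiffBind, which starts from reads, was not repeated.

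Python 3.11.15, numpy 2.4.6 and pandas 2.3.3 were used. Each gene with no peak in its window was given 0. Groups were compared by a two-sided exact permutation test over the 10 assignments of 5 libraries to 2 and 3, with p as double the smaller one-sided value and Benjamini-Hochberg adjustment over all protein-coding genes with a peak, so no comparison could pass 0.05. Window assignment was tested on simulated lists, where 3000 of 3000 pairs of gene and library were correct. Promoters came from the RefSeq table of GRCm38.p6, with entries for all 8 genes, each equal to the genome. Printed upstream sequence ends before the start sites of both annotations. Genes named are the 8 genes, those with a start within 1 kb of their peaks, of each related list the 2 with the highest mean percentile, up to 2 with no peak and those in 1 genotype alone, and the 3 nearest patterns to the gene with the highest mean. Exceptions are stated. The genes, lists and tests were chosen with earlier results of these data known.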

Additional observations from a re-analysis of the deposited data

How the results depend on the processing

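No comparison of 2 with 3 libraries could pass 0.05, so direction and size were followed under other settings: lists of equal length, peaks with −log10 q from 2 or from 5 upwards, windows of 3 kb or within 1 kb of a start, peaks at other genes' starts left out, peak midpoints, ranks by fold, each library left out, and the replicate number as a block. With lists of equal length, the WT minus TPdh-/- difference changed sign to -1.17 in peak number, -0.563 kb in covered length and -0.498 in mean percentile, and to -23.2 for *Fos*, -12.05 for *Fosl2* and -7.31 for *Batf*. The genes of the group higher in both WT than in all TPdh-/- libraries were then 0 in percentile and 0 in summed width, an alternative added after the values were seen. Leaving out 1 library each gave from 1.33 to 8.33 peaks, from 1.25 to 13.6 kb and from -0.376 to 33.7 percentile points. Without WT replicate 1, the difference was -11.5 for *Fos*, -20.9 for *Fosb*, -9.16 for *Fosl2* and -3.49 for *Junb*, and without TPdh-/- replicate 1 it was -18.8 for *Fos* and -8.73 for *Fosl2*. *Fos* was at -6.75 with a −log10 q of at least 2, and *Fosl2* at -1.49 within 1 kb of a start. The highest values among the fits that each left out 1 library were 14.9 for *Fos*, 72.1 for *Fosb*, 19.9 for *Fosl2* and 36.2 for *Junb*. The cause was not tested. Of 112 values of single genes under other settings, 92 kept their direction, 9 became 0 and 11 changed sign. These settings are not independent checks. The replicate block repeats the values without TPdh-/- replicate 3, and narrower windows often keep the same peaks. *Jun* kept its direction in all 14, but the window settings could not change its value.

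The labels do not say that replicate numbers pair samples. WT replicate 1 exceeded WT replicate 2 by 7 peaks while TPdh-/- replicate 1 was below replicate 2 (-2), and a fit with the replicate block, in which TPdh-/- replicate 3 has no partner and is dropped, gave differences of 6.5 peaks, 11.3 kb and 24.7 points. The block changed no direction, but its values equal those obtained by leaving out TPdh-/- replicate 3, so it does not bear on pairing. The depth of each library is unknown and limits which weak peaks are listed, and groups of 2 and 3 libraries are too small for a test of outlying samples.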
